A study of Mus musculus with 3 samples.

Results

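TEC genes are annotated loci that GENCODE labels as transcripts awaiting experimental proof. The set described here was chosen by annotation and by the measured level. All annotated transcripts of a member are of type TEC, and its level reached at least 10 TPM, a unit scaled for length and library total, in each of 3 libraries. In all, 97 of the 3213 TEC genes met this rule, which is 3.02% of them, among 55536 named genes. Over all named genes, 3759 (6.77%) reached the same level in every library. Since TPM chose the members, their levels are given as a description, with no test.

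The libraries hold ribosome-depleted RNA of the chromatin fraction of bone-marrow-derived macrophages, primary cells of mouse strain C57BL/6J. They form 1 group, treated for 20 min with lipid A at 100 ng/ml, and no genetic change is named in the labels. Lipid A is the membrane anchor of bacterial lipopolysaccharide, recognised by the receptor TLR4. Libraries were made from 1000, 250 and 500 ng of RNA in biological replicates 1, 2 and 3, so starting amount and replicate cannot be told apart. The labels give separate biosamples but 1 donor entry, do not say whether separate animals were used, and record neither age nor sex. No untreated library is analysed here, so levels are reported and not responses to lipid A.

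TEC models were usually drawn from isolated single-exon cDNA or expressed sequence tags with some evidence of a polyadenylated end. Such a tag can come from an independent noncoding RNA, from a long form of a neighbouring gene, or from priming on an A-rich stretch inside an intron. RNA bound to chromatin is rich in nascent, unspliced transcripts, so intron sequence is sampled there far more than in cytoplasmic RNA. Short reads over a TEC model in an intron do not show whether they come from a TEC transcript or from the unspliced RNA of the host gene.

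The gene tables hold 16141381, 16196661 and 12398651 expected counts over named genes in replicates 1, 2 and 3. The share of these counts that fell to the members was 1.09% in replicate 1, with bounds of 1.08 and 1.09%. It was 0.710% in replicate 2, with bounds of 0.706 and 0.714%, and 0.970% in replicate 3, with bounds of 0.965 and 0.976% (all 95% Wilson bounds). That was 49.3%, 46.3% and 41.9% of the counts of all TEC genes in the same libraries. Such bounds cover counting error only. Among the TEC genes 1355 (42.2%) had 0 expected counts in every library, and 775 reached 1 TPM in all libraries. All 12 macrophage markers lay at or above 1 TPM in every library, against 1 of 26 markers of other cell types. Small nucleolar RNAs took 55.7%, 46.4% and 40.4% of all TPM in replicates 1, 2 and 3, and protein-coding genes took 15.8%, 18.05% and 24.7%. TPM of every other gene is scaled by that division.

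Every one of the 97 members is a single-exon model, as are 3023 of the 3116 other TEC genes (97.0%). The annotated transcript ends of 5 members are printed first, because the end is the part of a TEC model that its polyadenylation evidence rests on. They are the 5 members with the highest mean TPM that touch no exon of a coding gene and are not printed whole below. Capitals mark a poly(A) signal, the letters AATAAA or ATTAAA, within the last 50 bases of the transcript. Sequences are the last 60 bases on the gene's own strand, 5′ to 3′, read from the GENCODE M21 transcripts on GRCm38. Gm37084 ends at chr1:131086252-131086311 (minus strand), Gm45223 at chr7:90137570-90137629 (plus strand) and Gm45222 at chr7:90150195-90150254 (plus strand). Gm37472 ends at chr14:61677443-61677502 (minus strand) and 5330406M23Rik at chr6:31108827-31108886 (minus strand).
Gm37084: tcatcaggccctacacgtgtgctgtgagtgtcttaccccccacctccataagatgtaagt
Gm45223: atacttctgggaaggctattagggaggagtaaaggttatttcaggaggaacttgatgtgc
Gm45222: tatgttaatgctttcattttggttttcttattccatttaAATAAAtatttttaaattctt
Gm37472: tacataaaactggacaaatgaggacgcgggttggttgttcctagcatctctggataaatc
5330406M23Rik: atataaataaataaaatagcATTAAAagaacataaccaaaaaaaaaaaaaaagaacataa

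Of these 5 ends, those of Gm45222 and 5330406M23Rik hold a signal within the last 50 bases. In 5330406M23Rik the end also runs through a long stretch of A. Over all members, 22 of 97 (22.7%) held either hexamer in the last 50 bases, against 907 of the 3116 other TEC genes (29.1%). A run of 6 A within the last 20 bases was found in 3 members (3.09%), against 154 other TEC genes (4.94%). Only the transcript's own strand was searched. The end of either hexamer can overlap a run of A. A match describes letters and does not show that RNA was cleaved there. Median GC content was 43.9% in members, against 42.2% in the other TEC genes.

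The 3 shortest members are printed whole, because their TPM rests on few bases and few counts. Gm47089 spans chr9:13519936-13520101 (plus strand), Gm38109 spans chr17:88533027-88533207 (plus strand) and Gm37689 spans chr4:6378018-6378292 (plus strand). Capitals have the same meaning as before.
Gm47089: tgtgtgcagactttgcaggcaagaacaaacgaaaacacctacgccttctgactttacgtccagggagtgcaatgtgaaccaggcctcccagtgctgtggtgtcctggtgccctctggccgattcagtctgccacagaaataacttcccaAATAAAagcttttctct
Gm38109: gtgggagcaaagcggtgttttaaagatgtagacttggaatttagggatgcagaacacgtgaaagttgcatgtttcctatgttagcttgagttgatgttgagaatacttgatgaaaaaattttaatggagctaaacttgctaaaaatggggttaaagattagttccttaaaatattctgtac
Gm37689: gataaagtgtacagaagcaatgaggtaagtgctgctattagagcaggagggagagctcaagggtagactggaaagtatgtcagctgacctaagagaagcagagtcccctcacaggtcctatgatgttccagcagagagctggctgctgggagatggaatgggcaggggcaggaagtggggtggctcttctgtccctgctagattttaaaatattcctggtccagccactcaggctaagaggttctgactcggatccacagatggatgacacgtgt

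Gm47089, 166 bases long and inside an intron of Maml2, a coactivator of Notch signalling, had 5, 3 and 2 expected counts in replicates 1, 2 and 3. Its levels were 11.4, 16.9 and 18 TPM, so a handful of reads placed it among the members. Gm38109, 181 bases long and inside an intron of Ppp1r21, had 21, 5 and 2 counts, with 31.7, 18.3 and 11.6 TPM. The exact Poisson interval on its 2 counts in replicate 3 ran from 0.242 to 7.22 counts. Gm37689, 275 bases long and inside an intron of Sdcbp, which encodes the scaffold protein syntenin, had 163, 73 and 32 counts. Its levels of 61.8, 56.8 and 38.2 TPM put it sixth among all members by mean TPM. For these 3 genes the TPM threshold was passed with far fewer counts than the median member had, which was a mean of 776 counts per library. TPM divides counts by an effective length, which is shorter than the annotated one. In replicate 1 it was 15.8 bases for Gm47089, 23.8 for Gm38109 and 94.8 for Gm37689, so their levels rest on that estimate too.

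Members ran from 166 to 7350 bases, with a median of 1957 bases and quartiles of 1279 and 2938. The other TEC genes ran from 43 to 74456 bases, with a median of 1946. Models under 300 bases made up 3.09% of members (3 genes) and 3.18% of the other TEC genes (99 genes). Models over 4000 bases made up 9.28% of members (9 genes) and 6.32% of the others (197 genes). Across the 97 members, length followed the mean expected count closely on log2 scales (Pearson r = 0.89, Spearman rho = 0.86). At a given TPM the count grows with length, and the quartiles of mean TPM were 16.7 and 29.4. The close fit is thus largely built into the unit and the rule. Length followed mean TPM loosely (r = 0.23, rho = 0.31). These correlations are across genes of the same libraries and are a description. The longest members were Gm37033, of 7350 bases in Itpkb, Gm37084, of 5898 bases in Mapkapk2, and A130071D04Rik, of 5864 bases in Ptprc. Gm37033 had 5885, 4317 and 4013 counts in replicates 1, 2 and 3. In 84 members every library held over 200 counts, in 6 members some library held under 100, and in 2 members, Gm38109 and Gm47089, some library held under 10.

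Mean levels of the members ran from 12.6 to 237 TPM, with a median of 21.4 TPM. The median over members was 17.8, 16.9 and 29.3 TPM in replicates 1, 2 and 3. In these bulk libraries a high level in few cells and a low level in many cannot be told apart. In every library 31 members reached 20 TPM, 5 reached 50 TPM and 2 reached 100 TPM.

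AC167363.2 was the highest member (GRCm38 chromosome 17, 29093416 to 29094461, minus strand, 1046 bases). It had 213, 211 and 286 TPM in replicates 1, 2 and 3, a mean of 237 ± 42.3 TPM (SD, n = 3). It lies on the other strand of Cdkn1a, the gene of the cell cycle inhibitor p21, and 26.1% of its bases fall in exons of Cdkn1a. Cdkn1a itself had 179, 97.7 and 206 TPM, a mean of 161 ± 56.4 TPM (SD, n = 3). AC167363.2 lay above Cdkn1a in each library, though both genes share counts, as given with the strands.

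Gm37084 came next and held more counts than any other member, 17.4% of all member counts. It covers 5898 bases of an intron of Mapkapk2 (chromosome 1, 131086252 to 131092149, minus strand), starting 5677 bases after the start of that gene. Mapkapk2 encodes MK2, the kinase below p38 that controls the stability and translation of cytokine mRNAs in macrophages. Gm37084 had 41923, 15499 and 14097 counts in replicates 1, 2 and 3, or 264, 129 and 180 TPM. Replicate 1 was the highest, which was so by TPM for only 5 of the 97 members. Mapkapk2 had 25.7, 11.3 and 18.6 TPM in the same libraries, the same order of libraries as its intron member. The ratio of Gm37084 to Mapkapk2 was therefore steady, at 10.3, 11.4 and 9.68.

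Gm42793 had 129, 81.1 and 155 TPM in replicates 1, 2 and 3, a mean of 121 ± 37.3 TPM (SD, n = 3). It begins 3 bases after the start of Spp1, the gene of the secreted phosphoprotein osteopontin, on the same strand (chromosome 5, 104435121 to 104436372). Exons of Spp1 cover 24.7% of it. Its level followed that of Spp1, at 112, 69.2 and 139 TPM, in the order of the libraries. Expected counts of both genes were fractional and summed to 7802, 3511 and 4490 in replicates 1, 2 and 3. Their levels are thus not independent.

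Picalm, which encodes a clathrin adaptor of endocytosis, holds 3 members on its own strand. Gm45223, which starts 2279 bases into Picalm, had 77.3, 94.5 and 151 TPM in replicates 1, 2 and 3. Gm45222, at 15735 bases, had 68.4, 72.3 and 116 TPM. Gm45221, at 55714 bases, had 27.9, 31.1 and 50 TPM. In each library the level fell with distance from the start of Picalm, whose own levels were 227, 217 and 346 TPM.

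Beside Gm37689, 4 other members completed the 10 highest. Gm37472 had 45.3, 37.4 and 62.8 TPM in replicates 1, 2 and 3 and lies in Dleu2. 5330406M23Rik had 35.3, 37.7 and 68.3 TPM and lies in Lncpint. Gm47603 had 35.9, 43.2 and 59.2 TPM on the other strand of an intron of 2010111I01Rik. Gm37352 had 33.0, 39.1 and 61.8 TPM outside any annotated gene. All 4 were highest in replicate 3 and lay between 44.6 and 48.5 TPM on average, closer to each other than their spread over libraries.

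**Figure D1:**
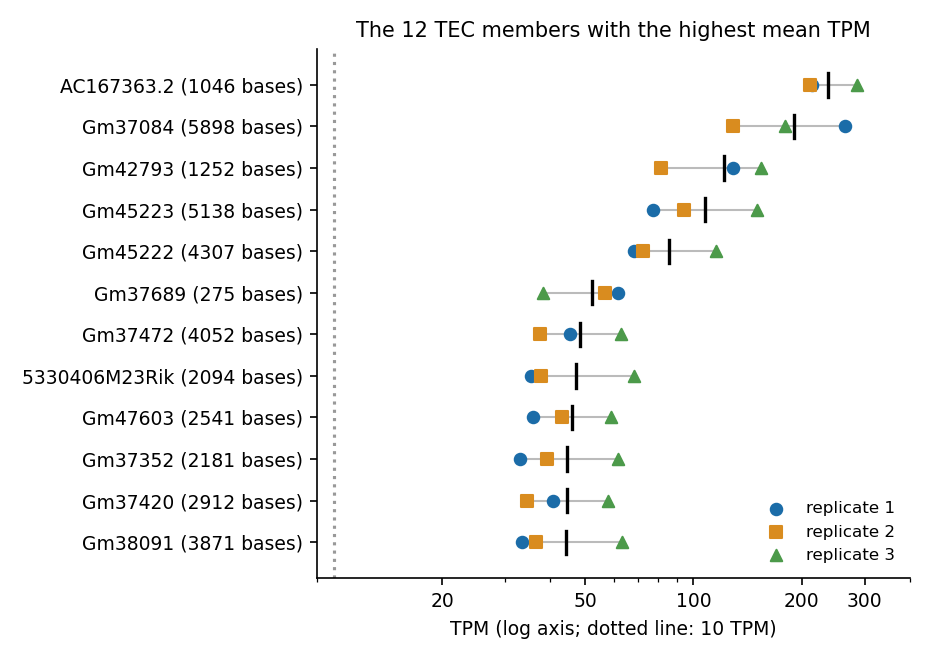
TPM (log axis) of the 12 members with the highest mean TPM; points are the 3 libraries, the black tick is the mean of 3 and the grey line joins the lowest and the highest library. AC167363.2 and Gm37084 stay above 100 TPM in every library, and the members from Gm37689 downwards overlap one another.

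At the other end of the set, Gm44033 had 11.4, 11.1 and 15.3 TPM in replicates 1, 2 and 3 on the other strand of Ghrl, the ghrelin gene. Gm42908 had 10.2, 10.9 and 18.1 TPM in an intron of Mlxip, which encodes a glucose-responsive transcription factor. Gm49522 had 11.9, 10.8 and 17.5 TPM in an intron of Mrtfa, an actin-regulated coactivator of serum response factor. Just inside the threshold by their lowest library lay C130083A15Rik in Chd2 (10 TPM), Gm19721 in Gnai2 (10.1 TPM) and Gm42908 (10.2 TPM). Just outside it lay Gm19327 in Elmsan1 (9.98 TPM), Gm9874 on the other strand of a coding gene (9.96 TPM) and E030022I16Rik in Ddx6 (9.90 TPM). The members nearest the threshold thus differed from those TEC genes by far less than the spread between libraries.

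Position relative to protein-coding genes was not used to choose the members. Wholly inside an intron of a coding gene on the same strand lay 69 members (71.1%), against 1406 of the other TEC genes (45.1%). On the same strand and touching a coding exon lay 4 members (4.12%), against 59 others (1.89%). Over a coding gene on the other strand only lay 16 members (16.5%), against 459 others (14.7%). Outside coding genes lay 8 members (8.25%), against 1192 others (38.3%). Put the other way, the members were 4.68% of the TEC genes in same-strand introns and 0.667% of those outside coding genes. No test was made of these shares. Distance to enhancers is not analysed here.

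**Figure D2:**
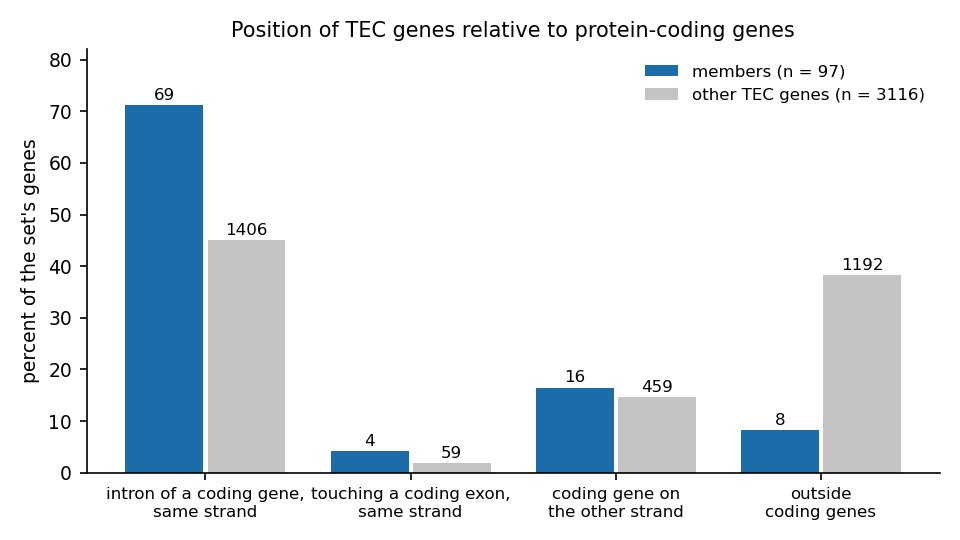
Percent of the 97 members and of the 3116 other TEC genes in each position class; numbers above the bars are genes. Members are mostly in same-strand introns, and few lie outside coding genes.

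The level of the surrounding gene went with how often a TEC gene was a member. Of the 688 TEC genes in same-strand introns of hosts under 1 TPM, none was a member. With hosts of 1 to 10 TPM, 4 of 323 were (1.24%), and with hosts of 10 to 50 TPM, 31 of 347 (8.93%). With hosts of at least 50 TPM, 34 of 117 were (29.1%). For TEC genes in introns on the other strand the members were 0 of 113, 2 of 52, 3 of 49 (6.12%) and 7 of 18 (38.9%) in the same steps of level. The share of members thus climbed with the level of the gene on either strand. Whether the counting used strand is not known. Reads over other-strand introns therefore cannot be told apart from unspliced RNA of the coding gene. Over all TEC genes in same-strand introns, members included, the median level was 0, 0.953, 4.84 and 7.96 TPM in those steps of host level.

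The TPM of a host counts its annotated exons, whereas the TPM of a member counts a stretch of intron. Over the 73 members on the strand of a coding gene, in 59 genes, the median ratio of member to host was 0.428 (quartiles 0.242 and 1.13). In every library 52 members lay below their host and 17 lay above it, and 4 changed sides between libraries. Across these members Pearson r and Spearman rho between member and host were both 0.25, on log2(TPM + 0.1) with n = 73. The rule cut the members off below 10 TPM, so these values come from a shortened range. Over all TEC genes in same-strand introns, members included, the median ratio was lower. It was 0.253, 0.189 and 0.0981 with hosts of 1 to 10, 10 to 50 and at least 50 TPM. The spread of the members' ratio over libraries was set beside that of the TPM values. The median coefficient of variation (CV, SD over mean) was 17.0% for the ratio, 33.0% for members and 26.6% for hosts. The ratio's CV was below the member's own in 64 of 73 cases. Members and hosts share each library's scaling, which a ratio removes. With TMM factors the median CV of all 97 members, a wider set than these 73, was 14.1%, below that of the ratio. It was not taken for the 73 members alone. The order of the spreads may thus depend on the scaling. Gm45221, for example, had a CV of 1.63% with TMM factors and 8.73% as a ratio to Picalm.

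Since every member has at least 10 TPM, the rule itself puts 4 of them above hosts whose means lay under 10 TPM. The members furthest above their hosts were Gm37084, at 10.3 times Mapkapk2, and Gm47089, at 9.55 times Maml2. The value for Gm47089 rests on the few counts and the short effective length given before, over a host of 1.62 ± 0.606 TPM (SD, n = 3). Gm37558, in an intron of Kpna4, a nuclear import adaptor, had 38.3, 41.8 and 52.6 TPM in replicates 1, 2 and 3, against 11.3, 11.6 and 17.0 TPM for Kpna4. Gm43982 in Etv6, a repressor of the ETS family, lay at 3.06 times its host, and Gm36527 in Rnf2, a Polycomb ubiquitin ligase, at 2.81 times. These hosts averaged 7.76 and 6.75 TPM and are among those under 10 TPM, as is Maml2. Furthest below its host was Gm42603, at 0.0829 of Anxa3, an annexin. A130071D04Rik, in an intron of the leukocyte phosphatase gene Ptprc, had 21.8, 14.6 and 33.7 TPM, against 210, 173 and 330 TPM for Ptprc.

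**Figure D3:**
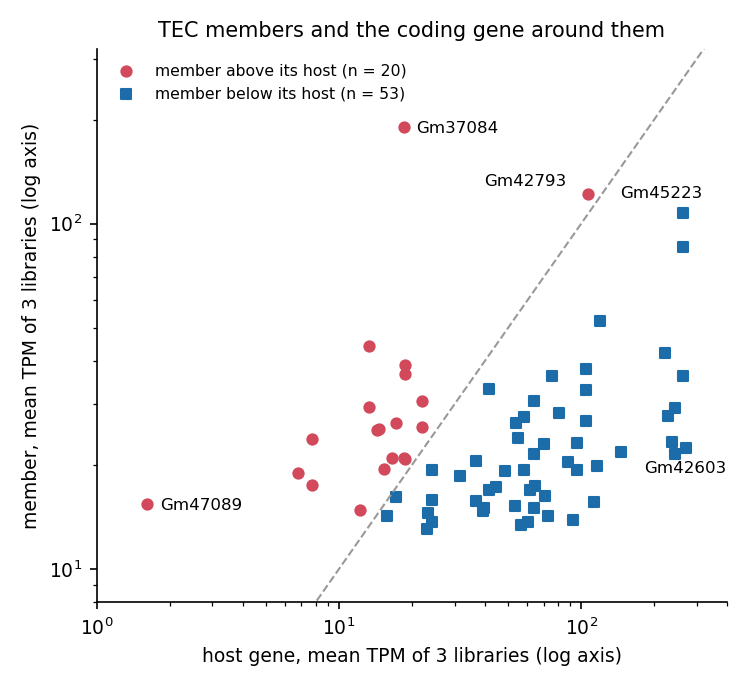
Mean TPM of 3 libraries for 73 members (vertical, log axis) against the coding gene around them on the same strand (horizontal, log axis); the dashed line marks equal levels. The rule sets the lower edge of the members at 10 TPM, while hosts run down to 1.62 TPM, and 20 members lie above the line.

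The 69 same-strand intron members lie in 56 genes, and 9 of these genes hold 22 of the members. Intron members started at a median of 28.1% along the host, against 41.9% for the 1406 other TEC genes in same-strand introns. In the first 20% of the host lay 27 members (39.1%), against 364 others (25.9%). The ratio to the host and the position along it were weakly related (r = -0.26, rho = -0.25, n = 69). Among the 9 genes with several members, the member nearest the start had the highest mean in 5, and was highest in every library in 4: Picalm, Etv6, Med13l and 2010111I01Rik. In Cpeb2, Itpkb, Pik3r1 and Rab43 it was highest in no library, and in Fli1 in 1. Each of these genes holds only 2 or 3 members, so order alone would often put the first one highest.

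Fli1, an ETS transcription factor of blood cells, held 3 members, each above Fli1 itself on average. Gm37082, 5684 bases from its start, had 25.4, 31.96 and 59.6 TPM in replicates 1, 2 and 3. Gm37474, at 15903 bases, had 16.8, 12.4 and 33.2 TPM, and Gm38346, at 32478 bases, had 29.9, 32.2 and 48.4 TPM. The middle member was the lowest in each library. Itpkb, an inositol phosphate kinase, also held 3 members. Gm37033 had 29.6, 28.6 and 40.7 TPM, Gm37390 had 37.0, 31.4 and 45.0 TPM, and Gm36933 had 27.4, 22.5 and 30.4 TPM. These 3 members kept one order in each library, with Gm37390 highest and Gm36933 lowest. Med13l, a subunit of the Mediator kinase module, held Gm43788, Gm43275 and Gm43052, with means of 19.3, 15.8 and 13.7 TPM in that order from its start. Pik3r1, a regulatory subunit of phosphoinositide 3-kinase, holds 2 members that share the symbol Gm36638. The 400-base one (ENSMUSG00000102635.1) had 21.9, 11.2 and 25.02 TPM, and the 2169-base one (ENSMUSG00000104214.1) had 25.7, 15.8 and 41.2 TPM.

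**Figure D4:**
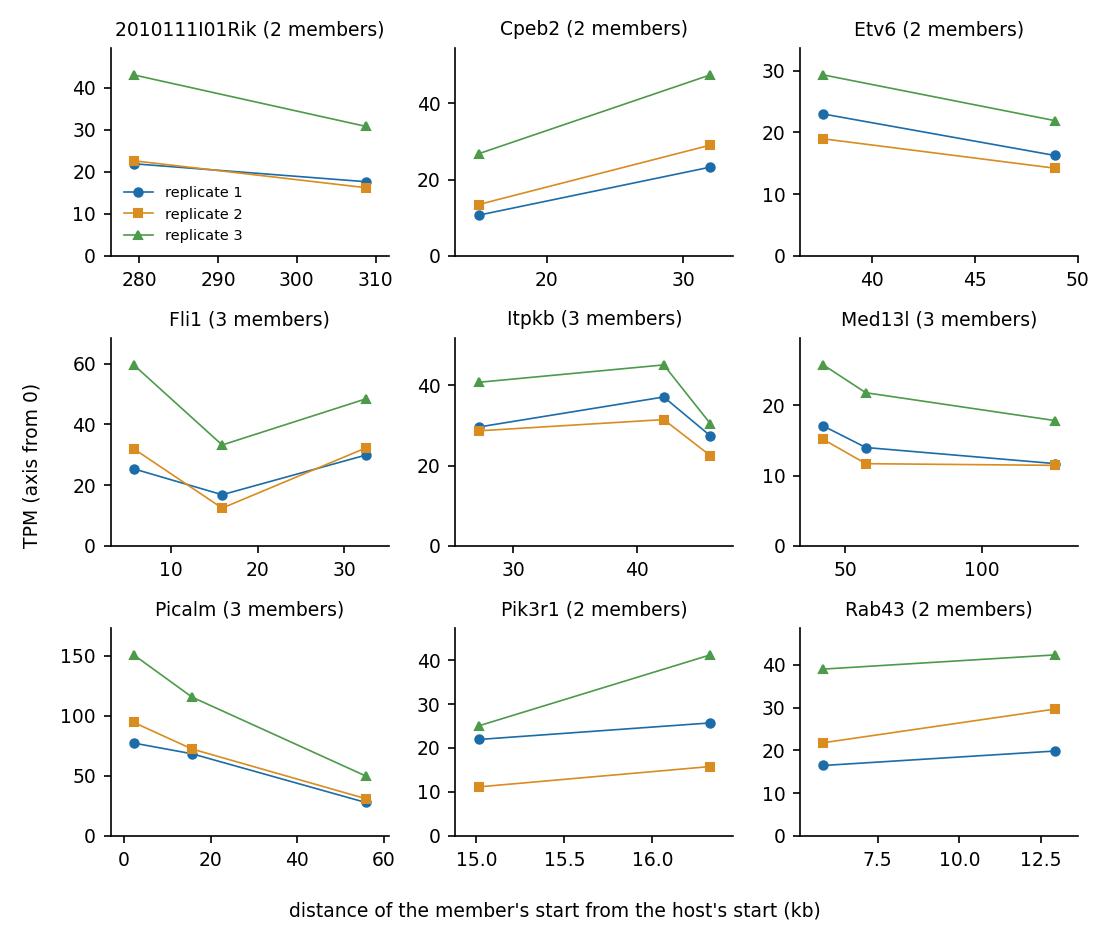
TPM (vertical, from 0) of members that share a host gene against the distance of each member from the host's start in kb; each panel is a host and each line a library. Members of a host keep the same order in the 3 libraries, except in Fli1. The level falls with distance in Picalm, Etv6, Med13l and 2010111I01Rik, of which Etv6 and 2010111I01Rik hold only 2 members each.

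The sources used here do not say whether the counting used strand. Of the 97 members, 92 had whole expected counts in every library (within 0.005), and the other 5 had fractional counts, as when reads are divided between genes. All 5 are among the 8 members that touch a coding exon. On the same strand, counts were fractional in 3 of 4 such members, those in Spp1, Rbm47 and Pkm, and whole in the member in Anxa3. On the other strand they were fractional in AC167363.2 at Cdkn1a and Gm44981 at Slc6a6, and whole at Fam168b and Ghrl. Counts were also whole in Gm38346, Gm37420 and Gm37334, which touch other-strand exons of genes not annotated as coding. Those exons cover 3.33%, 2.68% and 2.11% of them. AC167363.2 and Cdkn1a had 5072.06 and 6037.94 counts in replicate 1, which add up to 11110.00. In replicates 2 and 3 their counts summed to 5861 and 6687. Gm44981 and Slc6a6, the taurine transporter gene, had fractional counts in replicates 1 and 2, which summed to 10310 and 8198. In replicate 3 both had whole counts, 910 and 7060, so their sum shows no division. Counts were thus divided between genes on opposite strands at Cdkn1a in every library and at Slc6a6 in replicates 1 and 2. The strand a read came from cannot be told apart there. For the 12 members in introns on the other strand, whole counts do not show which strand the reads came from.

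The 16 members over a coding gene on the other strand included 12 in introns of that gene and 4 touching its exons. The median ratio to the coding gene was 0.448, from 0.0966 to 3.22. Over all TEC genes in other-strand introns, members included, it was lower. Medians there were 0.223, 0.112 and 0.101 with coding genes of 1 to 10, 10 to 50 and at least 50 TPM. Above the coding gene on average were 3 of the 16: AC167363.2, 2210406H18Rik at 3.22 times Mettl9, and Gm42502 at 2.35 times Rac1, a GTPase of the actin cytoskeleton. 2210406H18Rik also starts 108 bases past the end of Igsf6, a coding gene on its own strand. The level of Igsf6 was not set beside it here. Slc6a6 was covered from both sides. Gm44981 on its other strand had 36.3, 33.2 and 38.6 TPM in replicates 1, 2 and 3, and Gm45828, in an intron on its own strand, had 28.2, 24.5 and 30.4 TPM. 4930517G19Rik, also on the other strand, averaged 22.0 ± 9.25 TPM (SD, n = 3). Slc6a6 had 191, 217 and 276 TPM.

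Of the 8 members outside coding genes, 6 lie inside a noncoding gene on the same strand. Dleu2, the long noncoding RNA that hosts the miR-15a and miR-16-1 hairpins, holds Gm37472 and Gm37420. Gm37420 had 40.8, 34.5 and 58.0 TPM in replicates 1, 2 and 3, close to Gm37472 in each library, and Dleu2 averaged 107 ± 63.0 TPM (SD, n = 3). A330023F24Rik, at 20.2 ± 8.74 TPM (SD, n = 3), holds Gm37334 and 9630010A21Rik, at 15.8 ± 5.58 and 14.9 ± 4.11 TPM (SD, n = 3). Lncpint, a p53-induced noncoding RNA, averaged 225 ± 50.5 TPM around 5330406M23Rik. Gm43197 lies in Gm20559. The remaining members lie in no other annotated gene. Gm37352 (chromosome 8, 84200869 to 84203049, plus strand) ends 5469, 5623 and 5766 bases from Mir23a, Mir27a and Mir24-2 on the same strand, a cluster of microRNA genes. Gm45553 (chromosome 8, 54513644 to 54514150, minus strand) lies 6283 bases from Spcs3, a signal peptidase subunit, and had 24.6, 24.6 and 33.2 TPM, against 3.18 ± 1.68 TPM for Spcs3 (SD, n = 3).

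A list of 71 genes known for early responses to inflammatory stimuli was set against the members. Of these genes 50 reached 10 TPM in every library. Inside or nearest to a listed gene lay 0 of the 97 members and 6 of the 3116 other TEC genes (0.193%), so TEC genes at listed genes were rare in both sets. Gm43430 at Nfkb1, the gene of the NF-kB subunit p50 and its precursor, had 7.96, 3.75 and 9.04 TPM in replicates 1, 2 and 3. Gm37074 at Atf3, a stress-induced repressor, had 0.960, 0.860 and 1.49 TPM, and the TEC genes at Fosl2, Il6, Myc and Dusp5 lay at or under 0.0333 TPM on average.

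The median CV of TPM over the 3 libraries was 32.2% for members and 26.8% for the 3759 genes that reached 10 TPM in every library. Replicate 3 was the highest for 91 of 97 members, and for 3252 of the 3759 genes. Without replicate 3 the median CV of the members was 11.4%. Members deviated from their own log2 mean by a median of -0.27, -0.20 and 0.47 in replicates 1, 2 and 3, against -0.30, -0.08 and 0.37 over the 3759 genes. Scaling counts by TMM factors, which assume that most genes do not differ, lowered the median CV to 14.1% for members and 13.4% for the 3759 genes. With that scaling the median deviations of members were 0.08, -0.07 and -0.03, so the direction turned round in replicates 1 and 3. Replicates 1, 2 and 3 were then highest for 51, 17 and 29 members. The biological coefficient of variation, spread beyond counting error as fitted by edgeR and drawn towards genes of like abundance, had a median of 18.7% over 95 members. It was 20.99% over the 14942 genes fitted, which were not limited to genes of the members' level. Without shrinkage the medians were 13.5% for members and 14.1% for the genes fitted. Gm38109 and Gm47089 did not pass the count filter.

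Gm44292, in an intron of Mxd1, a MAX partner that opposes MYC, was the most variable member by TPM, with 36.4, 10.9 and 61.0 TPM in replicates 1, 2 and 3. Mxd1 moved with it, at 86.7, 24.1 and 116 TPM. Gm43071, in an intron of Dram2, had 12.1, 11.9 and 31.9 TPM, against 25.9, 24.1 and 44.8 TPM for Dram2. Gm37444, in an intron of Eya1, a transcription cofactor, had 11.2, 12.2 and 28.5 TPM from 78, 51 and 78 counts. The lowest CVs were those of Gm44981 (7.51%), Gm44974 in Anpep, the gene of aminopeptidase N (9.87%), and Gm45828 (10.7%). Gm44974 had 24.3, 20.4 and 24.5 TPM, against 49.9, 75.2 and 86.6 TPM for Anpep, so it did not keep the order of its host. With TMM factors these 3 CVs were 25.1%, 29.5% and 25.3%, above the upper quartile of 22.6% over members. The CVs of Gm44292, Gm43071 and Gm37444 were then 55.7%, 29.2% and 19.9%. Gm45221 had the lowest CV with TMM factors, the 1.63% given before.

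**Figure D5:**
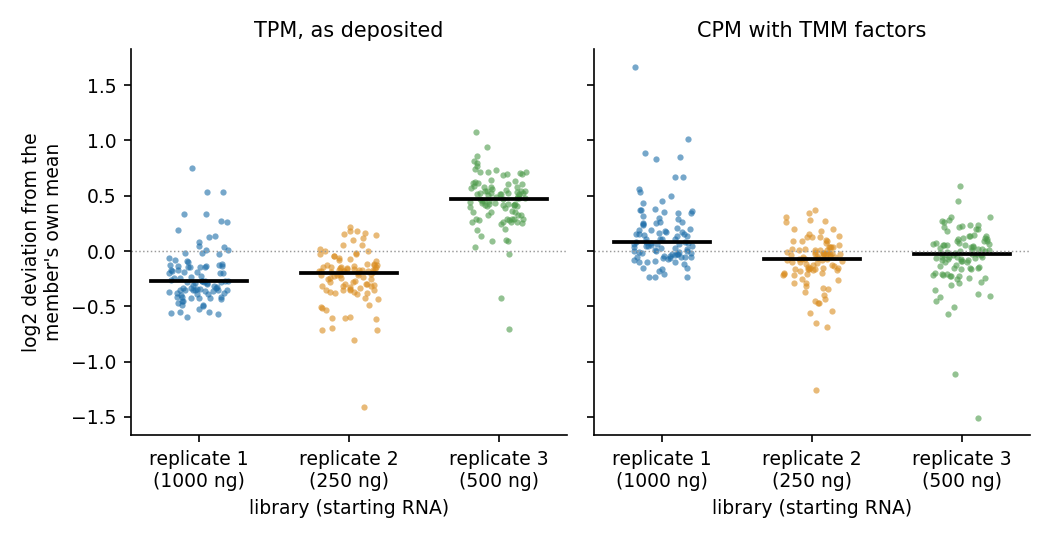
Log2 deviation of each of the 97 members from its own mean over 3 libraries, with TPM as deposited (left) and CPM with TMM factors (right); black lines are medians. Replicate 3 stands at 0.47 with TPM and at -0.03 with TMM factors.

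A second set of deposited tables, which estimates counts per transcript, gave the members a median of 1.07 times their gene-table TPM. Its counts summed to 25111219, 27695628 and 21058255 in replicates 1, 2 and 3. Named genes in the gene tables held 16141381, 16196661 and 12398651, so the 2 sets do not count the same amount of reads. For 68 of 97 members both lay within 1.2-fold of each other, and for 7 they differed by more than 2-fold, the second set being higher. The rule met 226 TEC genes there, of which 92 are members, or 94.8% of the 97 members and 40.7% of the 226. Gm37726, Gm42822, Gm42908, Gm43052 and Gm43499 met it only in the gene tables. The widest differences were those of Gm37689, at 232 against 52.3 TPM, Gm38109, at 83.5 against 20.5 TPM, and the 439-base Gm37444, at 46.2 against 17.3 TPM. Length did not sort them fully, since Gm37954 (2071 bases), Gm47445 (1694 bases) and Gm36955 (1661 bases) stood at 2.45, 2.29 and 2.00 times. Gm47089, the shortest member, stood at 1.95 times. At the low end Gm42793, Gm42908 and Gm38346 stood at 0.903, 0.911 and 0.916 of their gene-table level.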

How the data were processed

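Ribosome-depleted chromatin-fraction RNA was sequenced in 3 libraries of 1 group. Expected counts and TPM per gene were deposited by the authors, with signal columns of interval bounds in TPM that the authors also deposited and that were not used here. A second set of tables, also deposited by the authors, holds estimated counts and TPM of single transcripts, summed here per gene. Per the file headers and labels the assembly is mm10; the sources used here name no aligner, quantifier or use of strand. Reads that fit several genes are divided in expected counts. Every entry of a file enters its TPM scaling, so abundant small RNAs lower the TPM of other genes.

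Symbols, types and positions came from GENCODE M21 (GRCm38). The 26345 spike-in, control and numeric entries were left out of totals. Expected counts were rounded for edgeR 4.0.16 and DESeq2 1.42.0 (R 4.3.3). Spread was fitted with edgeR's tagwise dispersion in a model with only an intercept, over all genes with 10 counts in 2 libraries, and the script was tested on simulated data. Python 3.11.15, numpy 2.4.6, pandas 2.3.3, scipy 1.17.1 and matplotlib 3.10.9 were also used. With 1 group no comparison between groups was tested. SDs measure the spread between libraries, which may be technical. Identical libraries were not found.

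The members and lists were chosen with earlier results of these data known. Named members were those highest and lowest in TPM, counts, length, CV and the ratio of both quantifications, and those nearest the threshold. Host genes with several members, members outside coding genes and some extreme values were named after their values were seen. An intron member touches no exon of its host.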

Additional observations from a re-analysis of the deposited data

How the results depend on the processing

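The number of members was 97 and depended on the level rule. It was 226 with the second set of tables, 628 with TPM rescaled over coding genes, 244 at 5 TPM, 31 at 20 TPM, and 151 by mean TPM. Leaving out each replicate gave 97 to 114. The median level of 21.4 TPM became 109 with that rescaling, and 17.6 to 24.03 with a replicate left out. The median CV of 32.2% became 14.9% with rescaling, 14.1% with TMM factors and 13.8% with DESeq2 size factors. Leaving out each replicate gave 11.4 to 36.1%, and the lowest was without replicate 3. The median biological coefficient of variation of 18.7% was 13.5% without shrinkage, and 17.2 to 20.6% with a replicate left out. The member to host correlation (rho 0.25) was 0.20, and the median ratio (0.428) was 0.313, in the second set of tables. With a replicate left out that ratio was 0.378 to 0.437. A run of 8 A gave 1.03% in place of 3.09%. Median log2 deviations in replicates 1, 2 and 3 were 0.0791, -0.0700 and -0.0280 with TMM factors and 0.0811, -0.0550 and -0.0450 with DESeq2 size factors, against -0.27, -0.20 and 0.47 with TPM. The causes were not tested. Same-strand intron members numbered 69, and 81 on either strand.

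No paired analysis was possible because there is 1 group. The A-rich stretch after the annotated end needs a genome sequence and was not run; the run of A inside the transcript end replaced it. That measure, the fit without shrinkage, and the TMM and DESeq2 deviations were chosen after seeing the data. Depth limits the members with few counts most.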

Other observations

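In the second set of tables, 134 TEC genes that are not members met the rule of 10 TPM in every library. Of these, 58 lay in same-strand introns of coding genes, with median levels of 17.4 TPM there and 5.02 TPM in the gene tables. Another 18 lay over a coding gene on the other strand, with 23.1 and 4.11 TPM. The remaining 58 lay outside coding genes, with 30.1 TPM in the second set and 0.158 TPM in the gene tables. Of the 97 members, 69 lay in same-strand introns, 16 over a coding gene on the other strand and 8 outside coding genes.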
